A study of Macaca mulatta with 20 samples.

Results

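The genes described here are HSD11B1, PAPSS2 and CYP3A4, which take part in the activation of cortisol, in the supply of sulphate for steroid sulphation and in the hydroxylation of steroids. They were followed in rhesus macaque corpora lutea by every probe set of an Affymetrix rhesus array whose annotation gave 1 of these symbols and no other. That rule found 9 of the 52707 probe sets analysed, which are 1 for HSD11B1, 4 for PAPSS2 and 4 for CYP3A4. The genes were chosen from results of these same arrays, and which comparison's signals were behind that choice is not recorded. Their values are therefore given as a description, with no p-value printed. Where it is said how many of their probe sets passed a threshold, and in which settings, that too is a description and no independent test. The lists of pathway genes set beside them were also chosen with earlier results of these data known. Calls and shares of list genes are therefore no independent support.

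The 20 arrays fall into 5 groups of 4. The baseline group was untreated tissue taken on luteal day 10. The other 4 groups came from females given hCG (chorionic gonadotropin, the hormone that rescues the corpus luteum in early pregnancy; Novarel, recombinant in the submitters' wording) from luteal day 9, by 2 intramuscular injections a day in 9 rising doses from 15 to 2880 IU. Tissue was collected on luteal days 10, 12, 15 and 18, that is, with 1, then 3, 6 and at last 9 days under hCG. No untreated tissue of days 12, 15 or 18 was among the samples, so days of hCG, luteal day and dose reached cannot be told apart after day 10. Whether the 4 tissues in each group are from 4 animals is not stated in the labels, and p-values below measure only the spread between these samples. All 4 comparisons against untreated tissue share the same untreated arrays.

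The corpus luteum makes progesterone, and its cells also take up, convert and inactivate other steroids. HSD11B1, 11-beta-hydroxysteroid dehydrogenase type 1, sits in the endoplasmic reticulum and turns inactive cortisone into cortisol with NADPH made there by H6PD. PAPSS2 and its relative PAPSS1 join sulphate to ATP to make PAPS, the sulphate donor of all sulphotransferases, among them SULT2A1, which sulphates DHEA and other hydroxysteroids. CYP3A4 is a cytochrome P450, best known from the liver, that hydroxylates progesterone, testosterone, cortisol and many drugs with electrons passed on by POR.

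The deposited signals were scaled by the authors so that the 2% trimmed mean lay at 200.01 to 200.02 on every array, and the median signal was 31.6 to 46.4. Between 28.7 and 36.5% of the probe sets of an array lay under a signal of 16, the constant added before taking log2. The third principal component (8.40% of the variance) set 3 arrays apart, with scores of -54.8 to -50.2 against -4.82 to 23.6 for the other 17. These were replicate 2 of the untreated group, replicate 1 of day 12 and replicate 2 of day 15. No other tissue was compared. Of 7 luteal markers 4 had a probe set (STAR, FDX1, INHA and HSD3B2). These 4 summed to 38885 to 49893 in untreated tissue and to 36824 to 46704 on hCG day 18. Among them HSD3B2, which makes progesterone from pregnenolone, had a mean of 8320 in untreated tissue and 2340 on hCG day 18 and fell by 1.83 ± 0.21 (SE) on the log2 scale (limma, adjusted p = 4.4e-05). The 5 measured macrophage markers summed to 1039 to 2331 in untreated tissue and to 1997 to 3664 on hCG day 18, and 1 of them, CSF1R, rose by 1.06 ± 0.23 on the log2 scale (limma, adjusted p = 0.012). The 4 adrenal cortex markers summed to 151 to 499.6 and to 624 to 1850, and 1 of them, CYP11B1, rose by 2.44 ± 0.52 on the log2 scale (limma, adjusted p = 0.010), while CYP21A2, MC2R and CYP11B2 had means of 13.7, 5.41 and 61.9 on hCG day 18. These 3 were the only markers of 32 that passed in the day 18 comparison, where 3.9% of all probe sets did. The part of such shifts in the results below was not tested. In whole tissue, fewer cells of a type and less RNA per cell cannot be told apart.

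Probe sets of the members called lower than untreated tissue numbered 0 on hCG days 10 and 12, 2 on day 15 and 4 on day 18. A probe set is called here where limma's adjusted p, over all 52707 probe sets, was under 0.05. On hCG day 10 none of the 9 was called, against 0.954% of all probe sets, and 1 had an unadjusted p under 0.05, as had 12.4% of all. On hCG day 12 again none was called, against 0.288% of all, and 2 had an unadjusted p under 0.05, as had 10.6% of all. By day 15 there were 2 called, both lower (PAPSS2 MmuSTS.3264.1.S1_at and the CYP3A4 probe set whose identifier begins with Mmu and ends in x_at, called the Mmu x_at probe set below), against 1.29% of all in either direction and 0.674% lower, and 4 had an unadjusted p under 0.05 (11.9% of all). By day 18 there were 4 called, all lower (those 2, HSD11B1 and CYP3A4 MmugDNA.31167.1.S1_x_at), against 3.9% of all in either direction and 2.02% lower, and 4 had an unadjusted p under 0.05 (15.6% of all). Since these values may have chosen the genes, nothing is read from the counts. The median difference over the 9 was 0.33, -0.30, -0.50 and -0.23 on the log2 scale on days 10, 12, 15 and 18, beside medians over all probe sets of -0.05, -0.06, -0.05 and -0.03.

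None of the 9 was called between neighbouring hCG days, where limma called 0.518% of all probe sets from day 10 to 12 and 0 from day 12 to 15 and from day 15 to 18. At an unadjusted p under 0.05 the members numbered 3, 4 and 2 of the 9 in these steps, against 8.28, 5.13 and 7% of all probe sets. Groups of 4 that did not overlap were counted too. On hCG day 10, 1 of the 9 lay wholly above untreated tissue (HSD11B1), as did 3.42% of all probe sets. Below it lay 1 on day 12 (MmuSTS.3264.1.S1_at), 4 on day 15 and the same 4 on day 18 (HSD11B1, MmuSTS.3264.1.S1_at, the Mmu x_at probe set and MmugDNA.31167.1.S1_x_at), against 3.56, 4.56 and 6.37% of all. From one hCG day to the next, 3 lay wholly below the day before in the step to day 12 (2.68% of all), 3 in the step to day 15 (1.37%) and 1 in the step to day 18 (1.64%), and HSD11B1 was among them each time.

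By group means HSD11B1 was higher after 1 day of hCG and lower after 6 and 9 days than in untreated tissue. Of these differences only the one after 9 days was called. Its only probe set was MmugDNA.31533.1.S1_at. In untreated tissue the 4 arrays gave signals of 5643, 5815, 5588 and 6452. After 1 day of hCG they gave 8006, 7614, 7094 and 6909, each above every untreated array. On day 12 the signals were 4798, 5907, 5519 and 6790, which spanned the untreated range. The day 15 arrays gave 4269, 3614, 4527 and 4240, all below every untreated and every day 12 array. The day 18 arrays gave 2201, 2882, 2579 and 3113, and these in turn lay below every day 15 array.

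Group means of HSD11B1 were 5874 ± 397 (SD, n = 4) in untreated tissue and 7406 ± 500, 5753 ± 830, 4163 ± 388 and 2694 ± 394 on hCG days 10, 12, 15 and 18. Set against untreated tissue these are 126, 97.9, 70.9 and 45.9%. The differences from untreated tissue on the log2(signal + 16) scale were 0.33, -0.04, -0.50 and -1.13, each with an SE of 0.13, so that the level was 1.26-fold higher on day 10 and 2.19-fold lower on day 18. Each step between hCG days went down, by -0.37, -0.46 and -0.63. In the order hCG day 10, untreated, day 12, day 15, day 18, the untreated and day 12 groups overlapped and the other neighbours did not. The day 18 difference ranged from -1.22 to -1.04 over all the alternative settings, and the one of day 12 from -0.12 to 0.10, so that its sign was not settled. HSD3B2 of the luteal marker list, whose day 18 value is given above, fell by 0.97 on day 15 (limma, adjusted p = 0.024), and its part in the HSD11B1 values was not tested.

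**Figure D1:**
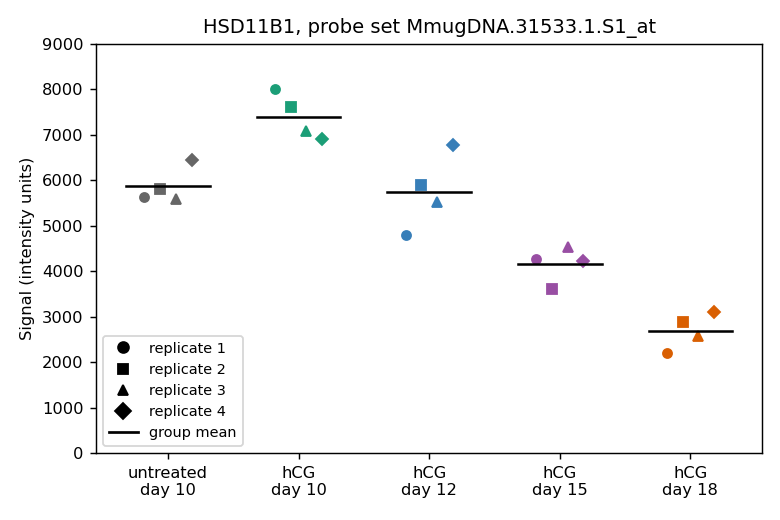
Signals of the HSD11B1 probe set (linear axis) in the 5 groups, with 1 point per array and a line at each group mean. The 4 hCG day 10 arrays (6909 to 8006) lie above the untreated arrays (5588 to 6452), and the 4 day 18 arrays (2201 to 3113) lie below all others.

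Of the other genes of cortisone and cortisol interconversion, 3 had a probe set and limma called none of them in any of the 4 comparisons against untreated tissue. At an unadjusted p under 0.05 the 3 gave 0, 1, 1 and 0 on days 10, 12, 15 and 18. Beside this list and those below, limma called 0.954, 0.288, 1.29 and 3.9% of all probe sets on these days. All probe sets include dim ones and ones without a symbol, whereas each list gene was read by its brightest probe set. An unadjusted p under 0.05 was found for 12.4, 10.6, 11.9 and 15.6% of all. SLC37A4, which carries glucose 6-phosphate into the endoplasmic reticulum where H6PD uses it, had means of 329, 329.9, 329, 349 and 387 in untreated tissue and on hCG days 10, 12, 15 and 18. HSD11B1L, a relative of HSD11B1, had means of 226, 269, 301, 289.6 and 289. H6PD, named for its role, was dim, with means between 14.2 and 30.7, near the constant of 16. HSD11B2, the enzyme that turns cortisol back into cortisone, was not analysed here.

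Some genes known to respond to the glucocorticoid receptor, which cortisol binds, rose under hCG. Of 8 measured genes of that list, the receptor included, by limma's adjusted p 1 rose on hCG day 10 and 0 on day 12. There were 2 on day 15 and 3 by day 18, and none fell. That is 12.5, 0, 25 and 37.5% of the 8, against 0.954, 0.288, 1.29 and 3.9% of all probe sets. The list was chosen with earlier results of these data known, so these shares are no independent test. On day 12, 2 of the 8 had an unadjusted p under 0.05, as had 10.6% of all. The list's median difference on day 18 was 0.35, beside -0.03 over all probe sets.

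TSC22D3, which encodes the glucocorticoid-induced leucine zipper, gave signals of 2290, 2047, 1779 and 2084 in untreated tissue. Its day 18 arrays gave 3789, 3563, 3447 and 3663, all above the untreated ones. The gene rose by 0.75, 0.70 and 0.82 ± 0.16 (SE) on the log2 scale on days 10, 15 and 18 (limma, adjusted p = 0.032, 0.038 and 0.0062). The day 10 and day 15 calls were lost in 6 and 7 of the 20 cases with 1 array left out (limma, adjusted p up to 0.129 and 0.148). They were also lost in 4 and 6 of the 8 other settings (limma, adjusted p up to 0.098 and 0.155). Both were lost with a pseudocount of 1, the 2 groups alone, the replicate number as a block and without the 3 arrays that stood apart. Quantile normalisation and median-centring lost the day 15 call too. The day 18 call was lost in no setting tried.

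SGK1, a kinase that controls sodium channels and other transporters, had untreated signals of 2239, 1550, 1813 and 2049. On day 18 it gave 3412, 2869, 3561 and 3503, with no overlap. The rise was 0.74 and 0.81 ± 0.14 on days 15 and 18 (limma, adjusted p = 0.0081 and 0.0016), and both of its probe sets were higher on day 18. The day 15 call was lost with the 2 groups alone (adjusted p = 0.062) and without the 3 arrays that stood apart (adjusted p = 0.076), and the day 18 call in no setting tried. CEBPD, a transcription factor of the acute phase response, had means of 537 and 899 in untreated tissue and on day 18 and rose by 0.73 ± 0.20 (limma, adjusted p = 0.042). That call was lost in 9 of the 20 cases with 1 array left out, and with a pseudocount of 1 or the 2 groups alone (limma, adjusted p = 0.079 and 0.067). The receptor itself, NR3C1, had means of 551 and 698 and did not pass on day 18 (0.33 ± 0.12, limma, adjusted p = 0.14). FKBP5, another well known target named here for its role, had means of 159, 299, 86.7, 85.0 and 131 in group order (untreated, then hCG days 10, 12, 15 and 18) and did not pass in any comparison against untreated tissue.

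For PAPSS2 the 4 probe sets gave 2 different pictures. On MmugDNA.21697.1.S1_at, MmugDNA.6538.1.S1_at and MmugDNA.30596.1.S1_at all differences from untreated tissue lay between -0.42 and 0.08 on the log2 scale, and neighbouring levels overlapped throughout. The fourth, MmuSTS.3264.1.S1_at, was lower at each later collection, and on day 18 stood at 12.8% of its untreated mean.

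MmugDNA.21697.1.S1_at gave 7154, 7137, 8147 and 9549 in untreated tissue and 7536, 7958, 6464 and 8223 on hCG day 18, ranges that overlap. Its group means were 7997 ± 1137 (SD, n = 4) in untreated tissue, then 7999.7 ± 467, 7079 ± 537, 7813 ± 833 and 7545 ± 774 at the 4 hCG collections. The differences from untreated tissue were 0.01, -0.17, -0.03 and -0.08 ± 0.12 (SE), all within 2 SE of 0.

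The second, MmugDNA.6538.1.S1_at, had means from 4579 ± 592 on day 12 to 5056 ± 548 on day 15, and differed from untreated tissue by -0.06 to 0.08 ± 0.13 on the log2 scale. The third, MmugDNA.30596.1.S1_at, had means of 4458 ± 220 in untreated tissue, 3425 ± 1016 on day 12 and 4160 ± 338 on day 18. Its differences were -0.10, -0.42, -0.27 and -0.10 ± 0.19.

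For MmuSTS.3264.1.S1_at the untreated arrays gave 971, 1297, 782 and 1348. On hCG day 10 the signals were 932, 801, 1166 and 1021, inside the untreated range. The day 12 arrays gave 540, 665, 533 and 364, all below every array of the earlier groups. On day 15 they gave 203, 393, 266 and 193, and on day 18 92.4, 127, 249.7 and 93.5. The last 2 steps overlapped by 1 or more arrays, and each of the day 12, 15 and 18 groups lay wholly below the untreated one.

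Group means of this probe set were 1099 ± 269, 980 ± 153, 526 ± 123, 264 ± 92.0 and 141 ± 74.5 in group order. Its differences from untreated tissue were -0.14, -1.04, -2.02 and -2.90 ± 0.28 on the log2 scale, the last a 7.48-fold lower level. From one hCG day to the next it moved by -0.90, -0.98 and -0.89. With the 3 arrays that stood apart left out, the day 18 difference was -2.81.

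Within each array the level of MmuSTS.3264.1.S1_at was also set against the mean of the other 3 PAPSS2 probe sets, which removes whatever shifts the whole array. That log2 difference was -2.35 ± 0.37 (SD, n = 4) in untreated tissue and -2.46 ± 0.16, -3.17 ± 0.47, -4.29 ± 0.59 and -5.18 ± 0.68 on hCG days 10, 12, 15 and 18. Which transcripts of PAPSS2 each probe set reads was not analysed here, and the disagreement of the probe sets leaves the direction of PAPSS2 as a gene unsettled on days 12 to 18. All 4 lay below untreated tissue on days 12 and 18, but for 3 of them the differences were -0.17, -0.06 and -0.42 on day 12 and -0.08, -0.02 and -0.10 on day 18.

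**Figure D2:**
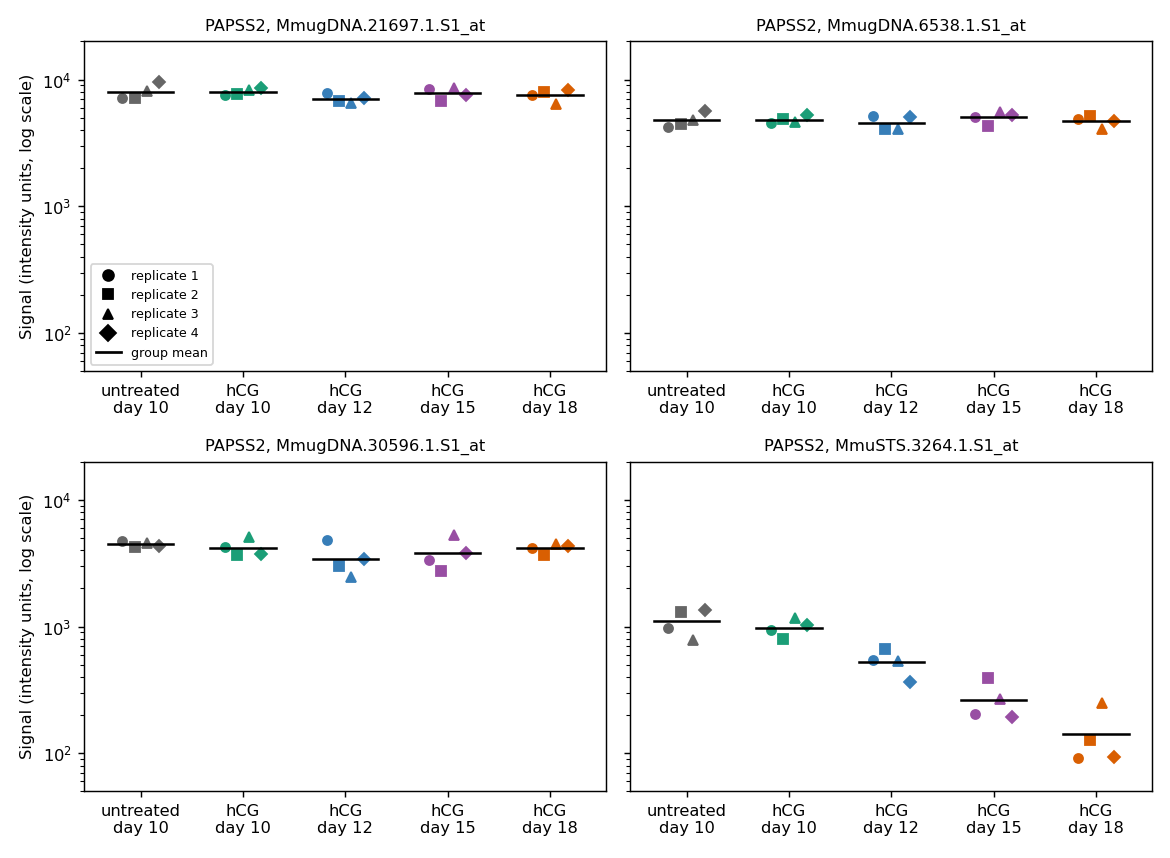
Signals of the 4 PAPSS2 probe sets (log axes) in the 5 groups, with 1 point per array and a line at each group mean. In 3 panels the group means stay between 3425 and 7999.7, and in the panel of MmuSTS.3264.1.S1_at they go from 1099 in untreated tissue to 141 on hCG day 18.

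Other genes that feed sulphate into the PAPS pathway did not pass. Of 6 measured, limma called 0 in each of the 4 comparisons against untreated tissue, with 0, 0, 1 and 1 at an unadjusted p under 0.05. SLC26A2, a sulphate transporter of the plasma membrane, had means of 2977, 3306, 3854, 4328 and 4133 in group order (0.48 ± 0.25 on day 18, limma, adjusted p = 0.39). PAPSS1, named for its role as the second PAPS synthase, had means of 1175 ± 361 in untreated tissue and 763 ± 133 on day 18 (-0.58 ± 0.20, limma, adjusted p = 0.13). SLC35B3, which carries PAPS into the Golgi, had means of 1128 and 1076.

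Enzymes that use PAPS were read as cytosolic and as Golgi sulphotransferases. Of 5 measured genes of cytosolic sulphotransferases and the steroid sulphatase system, 1 fell on day 18 (20%, against 3.9% of all probe sets called). It was SULT1C4, a phenol sulphotransferase. Its means were 778 ± 73.6 in untreated tissue and 442 ± 95.6 on day 18, a decrease of 0.82 ± 0.20 on the log2 scale (limma, adjusted p = 0.028). The call was lost in 5 of the 20 cases with 1 array left out. It was also lost with a pseudocount of 1 (limma, adjusted p = 0.055) and without the 3 arrays that stood apart (limma, adjusted p = 0.063). The other SULT1C4 probe set differed by -0.20 on day 18 and was not called. Of its 2 probe sets, 1 was higher and 1 lower than in untreated tissue on days 10, 12 and 15. On days 10, 12 and 15 limma called 0 of the 5, with 1 at an unadjusted p under 0.05 on each. SUMF1, which activates sulphatases, had means of 1274 and 1757 and did not pass. SULT2A1, the hydroxysteroid sulphotransferase, named for its role, had means between 12.5 and 17.8 in all groups, near the constant of 16. STS and SULT1E1 were not analysed here.

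Of 13 measured Golgi sulphotransferases, which sulphate glycosaminoglycans and proteins, 1 fell on hCG day 10 (7.69%, against 0.954% of all probe sets called). None passed on days 12, 15 and 18, where 3, 4 and 4 had an unadjusted p under 0.05. The 1 called was HS2ST1, a heparan sulphate sulphotransferase, with means of 1427 ± 120 in untreated tissue and 745 ± 177 on hCG day 10 (-0.95 ± 0.21, limma, adjusted p = 0.030). Of its 5 probe sets 4 were lower on that day and 2 of them were called. Again 4 of the 5 were lower on days 12, 15 and 18, with 1, 0 and 1 of the 5 called, but not the probe set read for the list. The day 10 call was lost in 6 of the 20 cases with 1 array left out. Median-centring, a pseudocount of 1 and the 2 groups alone lost it too (limma, adjusted p = 0.085, 0.071 and 0.076).

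CYP3A4 was read by 4 probe sets that ran together on the first days and apart later. All 4 were higher on hCG day 10 and lower on day 12 than in untreated tissue, by 0.61 to 0.75 and by -0.60 to -0.12 on the log2 scale, beside SEs of 0.49 to 0.79. On days 15 and 18 they disagreed, with 3 below untreated tissue and 1 above it by mean log2 values. By mean signal, MmugDNA.1267.1.S1_s_at stood at 156 and 186% of untreated tissue on these days, and MmugDNA.31167.1.S1_s_at at 80.9 and 109%, so that the direction of the latter on day 18 turned with the scale. All 4 identifiers end in x_at or s_at, by which the array's maker marks probe sets whose probes can match other sequences or are shared by several transcripts. In the RefSeq annotation of the T2T-MMU8v2.0 assembly, CYP3A4 lies beside CYP3A43 and LOC144339706 and near CYP3A7, and which members of that family a probe set reads was not analysed here. CYP3A4 is abundant in liver, and the 3 measured hepatocyte markers, APOA1, APOH and SERPINA1, summed to 7280 to 13681 in untreated tissue and to 5963 to 8871 on hCG day 18. Their day 18 means were 6261, 28.4 and 927 beside 9144, 24.8 and 942 in untreated tissue, none passed, and their part in the CYP3A4 values was not tested.

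The Mmu x_at probe set was lower than in untreated tissue on days 15 and 18 without overlap. Its untreated arrays gave 1094, 1438, 1266 and 2896, and the hCG day 10 arrays gave 2958, 3358, 3397 and 1397. The ranges of these groups overlap, with hCG day 10 replicate 4 inside the untreated range. On day 12 the signals were 673, 1524, 1307 and 796. The day 15 arrays gave 358, 131, 525 and 401 and the day 18 arrays 47.2, 314, 279 and 152, so that every array of both groups lay below every untreated and every day 12 array.

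Its group means were 1673 ± 827 (SD, n = 4), 2777 ± 941, 1075 ± 406, 354 ± 165 and 198 ± 122, or 166, 64.2, 21.1 and 11.8% of untreated tissue on hCG days 10, 12, 15 and 18. The log2 differences were 0.75, -0.60, -2.23 and -3.13 ± 0.49 (SE), and the day 18 level was 8.74-fold lower. Without the 3 arrays that stood apart, the differences of days 15 and 18 were -1.87 and -3.16. The day 15 call was lost in 5 of the 20 cases with 1 array left out (untreated replicates 2 and 4 and hCG day 15 replicates 1, 2 and 4), and the day 18 call in none. Among the other settings, a pseudocount of 1, the 2 groups alone and leaving out the 3 arrays that stood apart also lost the day 15 call. None of them lost the day 18 call.

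A second probe set, MmugDNA.31167.1.S1_x_at, took a similar course with a wider spread. It gave 1491, 1012, 1541 and 3663 in untreated tissue and 3434, 4274, 2435 and 1925 on hCG day 10. On day 15 its arrays gave 656, 194, 1010.0 and 869, and on day 18 53.1, 664, 659 and 503, with hCG day 18 replicate 1 far below the other 3. The log2 differences were 0.75, -0.12, -1.53 and -2.27 ± 0.62. On day 18 that is a 4.82-fold lower level, or 2.78-fold with hCG day 18 replicate 1 left out. The day 18 call was lost in 16 of the 20 cases with 1 array left out, and in 3 of the 8 other settings tried on single probe sets.

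For MmugDNA.1267.1.S1_s_at, the third, single arrays decided the late values. Untreated arrays gave 1043, 1509.5, 1050 and 2708, hCG day 10 arrays gave 2472, 2392, 2960 and 1416, and day 12 arrays gave 981, 1256, 1245 and 1246. On day 15 the signals were 6776, 425, 1301 and 1325, and on day 18 276, 3816, 776 and 6870. The highest of these were above every untreated array and the lowest below every one. The group means were 1577 ± 784, 2310 ± 647, 1182 ± 134, 2457 ± 2910 and 2935 ± 3054, and the log2 differences 0.61, -0.30, 0.04 and 0.09 ± 0.79. Without hCG day 15 replicate 1 the day 15 difference was -0.68. The day 18 difference was -0.62 without hCG day 18 replicate 4 and 0.90 without replicate 1, so that its direction was not settled.

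The fourth, MmugDNA.31167.1.S1_s_at, had means of 461 ± 167, 750 ± 316, 378 ± 148, 373 ± 260 and 502 ± 324 in group order. Its log2 differences were 0.63, -0.30, -0.51 and -0.23 ± 0.60. On day 18 its arrays gave 70.3, 452, 816 and 668, which spanned the untreated arrays of 393, 337, 406 and 707.

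**Figure D3:**
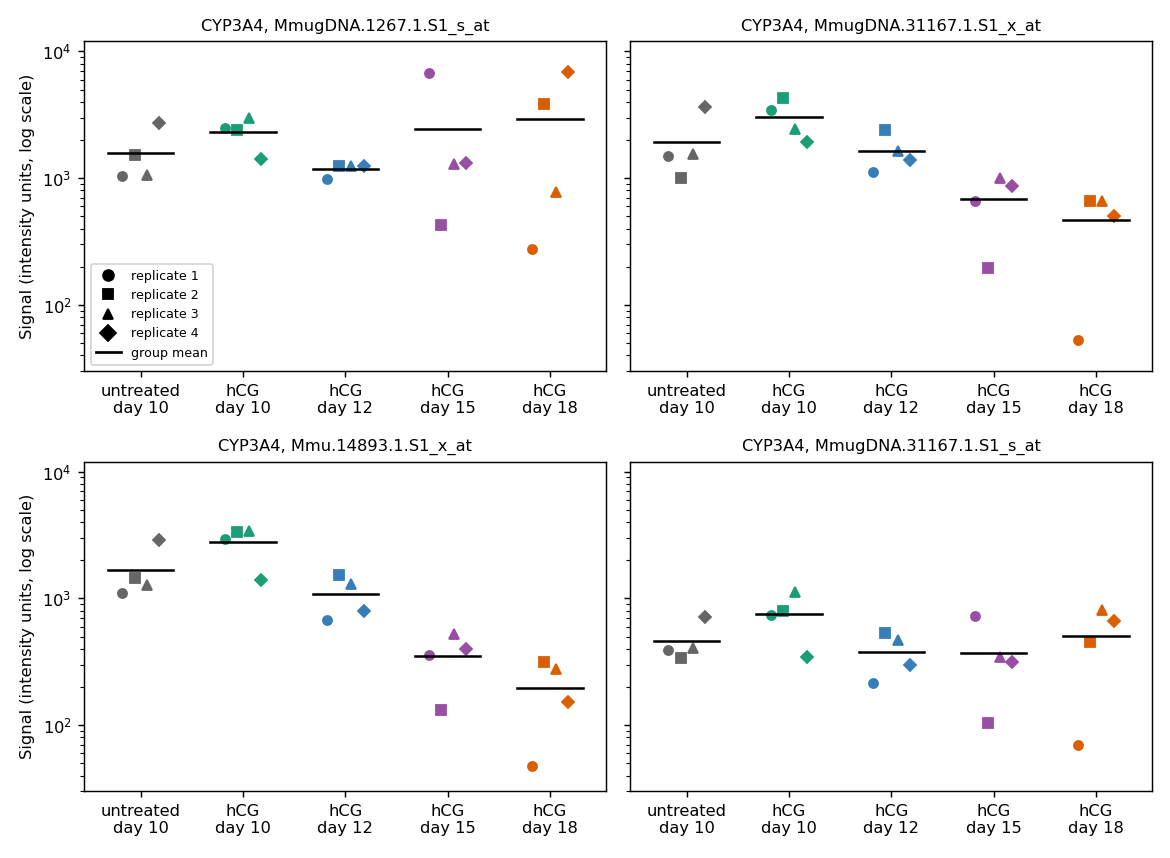
Signals of the 4 CYP3A4 probe sets (log axes) in the 5 groups, with 1 point per array and a line at each group mean. The Mmu x_at probe set goes from a mean of 1673 to 198 on hCG day 18, whereas the day 18 arrays of MmugDNA.1267.1.S1_s_at spread from 276 to 6870.

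The same arrays stood low or high within their group on all 4 CYP3A4 probe sets. hCG day 10 replicate 4, day 12 replicate 1, day 15 replicate 2 and day 18 replicate 1 were each the lowest of their group on 4 of 4, and untreated replicate 4 and hCG day 12 replicate 2 the highest on 4 of 4. Of these, hCG day 12 replicate 1 and day 15 replicate 2 belong to the 3 arrays that stood apart on the third principal component. The part of that component in the CYP3A4 values is shown only by the values without the 3 arrays. Those of the Mmu x_at probe set are given above, and for MmugDNA.1267.1.S1_s_at the day 15 difference was then 0.65 in place of 0.04.

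Within an array, the CYP3A4 probe sets differed from each other by other amounts on days 15 and 18 than before. MmugDNA.1267.1.S1_s_at minus the Mmu x_at probe set was -0.09 ± 0.14 (SD, n = 4) on the log2 scale in untreated tissue and -0.23 ± 0.21, 0.21 ± 0.45, 2.18 ± 1.34 and 3.13 ± 1.72 on hCG days 10, 12, 15 and 18. The s_at minus the x_at probe set of MmugDNA.31167 was -1.91 ± 0.33, -2.03 ± 0.62, -2.09 ± 0.23, -0.90 ± 0.76 and 0.12 ± 0.44. Both s_at probe sets were thus higher against the x_at probe set they were set against from day 15 on, which opened a gap in the first pair and closed one in the second. The x_at probe sets parted as well. MmugDNA.31167.1.S1_x_at minus the Mmu x_at probe set was 0.14 ± 0.43, 0.14 ± 0.42, 0.62 ± 0.21, 0.84 ± 0.24 and 1.00 ± 0.63 in group order. The source of these shifts was not tested.

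**Figure D4:**
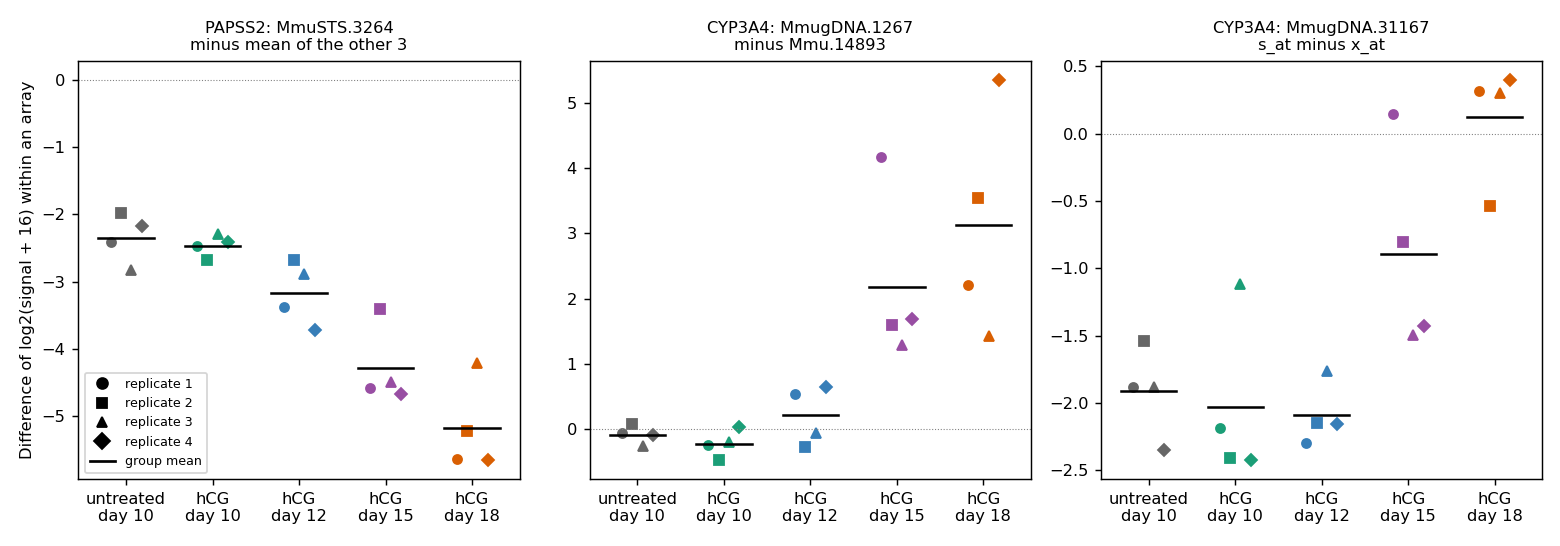
Differences between probe sets of 1 gene within each array, in log2 units, with 1 point per array and a line at each group mean. PAPSS2 MmuSTS.3264.1.S1_at minus the mean of the other 3 goes from -2.35 in untreated tissue to -5.18 on hCG day 18, and CYP3A4 MmugDNA.1267.1.S1_s_at minus the Mmu x_at probe set from -0.09 to 3.13.

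Probe sets of other CYP3A genes are given beside these, without a test of the difference. CYP3A5, a close relative that hydroxylates many of the same steroids, had means of 7015 ± 1960, 7884 ± 2159, 8523 ± 2952, 7760 ± 1334 and 5000.3 ± 2310 on MmugDNA.36201.1.S1_at in group order. It did not pass on any day (-0.54 on day 18, limma, adjusted p = 0.39). A probe set annotated to both CYP3A5 and CYP3A4, and so no member here, had means of 9516 in untreated tissue and 7890 on day 18, a log2 difference of -0.30. CYP3A43 was dim, between 5.08 and 28.0 in every group.

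Of the 9 measured genes of the CYP3A family, its electron donors and its regulators outside the members, 1 rose on days 15 and 18 and none fell. That is 11.1% of the 9, against 1.29 and 3.9% of all probe sets on these days. None passed on days 10 and 12, where 4 and 1 had an unadjusted p under 0.05, as had 12.4 and 10.6% of all. The 1 was POR, the reductase that passes electrons to microsomal P450 enzymes. Its untreated arrays gave 1155, 1056, 906 and 846, and its day 18 arrays gave 2312, 2547, 1958 and 2203, all higher. POR rose by 0.89 and 1.18 ± 0.19 (SE) on the log2 scale on days 15 and 18 (limma, adjusted p = 0.021 and 0.00098). The other 3 POR probe sets were lower on day 18, by up to -0.28, so that the rise rests on 1 probe set of 4, MmuSTS.3660.1.S1_at. The day 15 call was lost without untreated replicate 3 or 4 or hCG day 15 replicate 4 (limma, adjusted p up to 0.088). It was also lost with the 2 groups alone (limma, adjusted p = 0.12). CYB5A, cytochrome b5, and PGRMC1, a haem-binding partner of P450 enzymes, had day 18 means of 8970 and 8347 beside 6542 and 5783 in untreated tissue and did not pass.

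Neither remaining list gave a call against untreated tissue. Of 6 measured genes that reduce or oxidise progesterone and androgens, limma called 0 on each day, with 2, 0, 1 and 0 at an unadjusted p under 0.05. DHRS9, a retinol and 3-alpha-hydroxysteroid dehydrogenase, had means of 1772 ± 698 in untreated tissue and 4672 ± 1491 on hCG day 10 (1.43 ± 0.54, limma, adjusted p = 0.27), then 1940 ± 921, 1944 ± 1525 and 1273 ± 445. HSD17B4, a peroxisomal enzyme that also oxidises oestradiol, had means of 1386 and 1566 in untreated tissue and on day 18. Of 10 measured genes of oestrogen hydroxylation, methylation and glucuronidation, limma called 0 on each day, with 2, 1, 0 and 0 at an unadjusted p under 0.05. UGDH, which makes the glucuronic acid donor, had means of 1042, 792, 949, 947 and 1061 in group order, and CYP1B1, an oestrogen hydroxylase, of 499 in untreated tissue and 901 on day 18.

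Over all 8 lists and 60 genes, 1 rose and 1 fell on hCG day 10, 0 passed on day 12, 3 rose on day 15, and 4 rose and 1 fell on day 18. That is 3.33, 0, 5 and 8.33% of the 60, against 0.954, 0.288, 1.29 and 3.9% of all probe sets. These shares come from unlike sets, since the list genes were read by their brightest probe sets. At an unadjusted p under 0.05 there were 13, 9, 13 and 16 of the 60 genes. These are counts, and as a share of the 60 each lies above the 12.4, 10.6, 11.9 and 15.6% of all probe sets. Between neighbouring hCG days limma called 0 in each of the 3 steps, against 0.518, 0 and 0% of all. At an unadjusted p under 0.05 these steps gave 13, 2 and 5 of the 60, as shares above, below and above the 8.28, 5.13 and 7% of all. The median difference of the 60 on day 18 was 0.07, beside -0.03 over all probe sets.

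**Figure D5:**
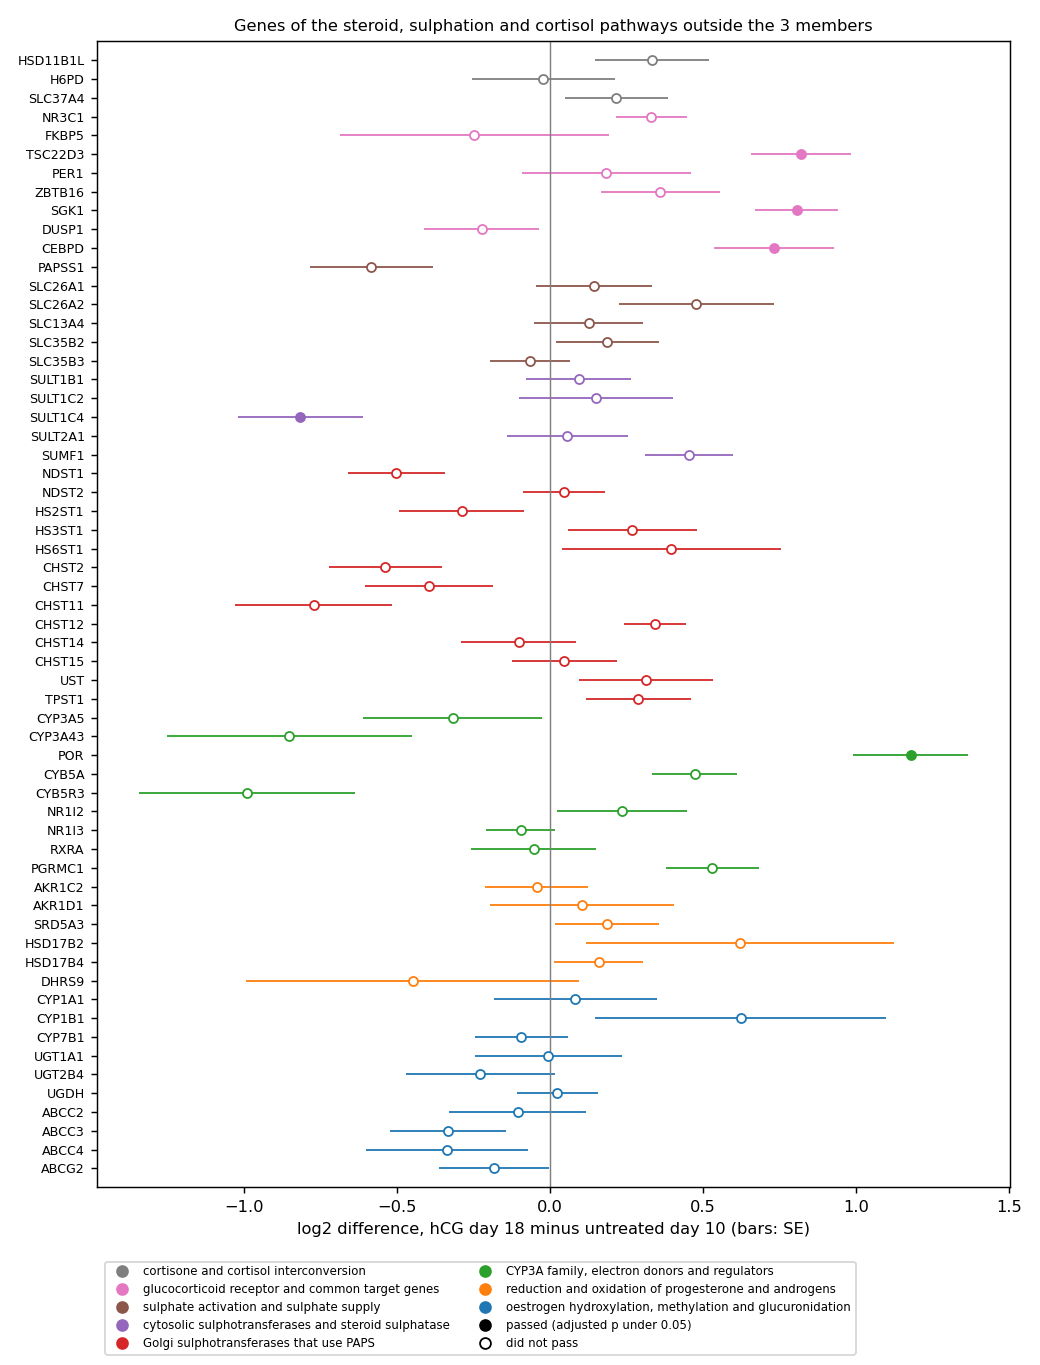
Log2 differences, hCG day 18 minus untreated day 10, of the 60 measured pathway genes outside the 3 members, with bars of 1 SE and filled points for those that passed limma's adjusted p of 0.05. Filled to the right are POR (1.18), TSC22D3 (0.82), SGK1 (0.81) and CEBPD (0.73), and filled to the left is SULT1C4 (-0.82).

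The genes closest to each member in course were found by the root mean square difference of their centred log2 values over the 20 arrays, among the upper 50% of probe sets by mean level. For HSD11B1, whose own spread by this measure was 0.525, they were CDCA2 (0.217), GATA6 (0.233) and UBE2S (0.240). GATA6, a transcription factor of steroid-making cells, had means of 2685, 3165, 2314, 1813 and 1495 in group order, highest on hCG day 10 and lowest on day 18 as for HSD11B1. UBE2S, a ubiquitin-conjugating enzyme of the cell cycle, had 275, 366, 268, 241 and 144.

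For PAPSS2, by its probe set with the highest mean level, whose own spread was 0.142, the closest were LHFPL6 (0.118), RPS7 (0.119) and SEPTIN2 (0.128), distances little below that spread. For CYP3A4, by MmugDNA.1267.1.S1_s_at with an own spread of 1.11, they were PBX3 (0.733), ATP2A2 (0.910) and PPDPF (0.913). The fourth probe set of PAPSS2, MmuSTS.3264.1.S1_at, was searched as well after its values were seen. With an own spread of 1.17 it lay closest to TNFRSF12A (0.470), GPI (0.508) and FSTL3 (0.518). TNFRSF12A, the receptor for the cytokine TWEAK, had means of 1359, 1654, 885, 391 and 293. For the Mmu x_at probe set of CYP3A4, with an own spread of 1.58, the closest were LRRC15 (0.697), LOC712957 (0.790) and that same PAPSS2 probe set (0.797). These likenesses are descriptions over 20 arrays that share their groups.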

How the data were processed

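Total RNA of 20 corpora lutea was measured on Affymetrix rhesus arrays. The deposited values are linear signal intensity per probe set, made by the authors with GCOS per the submitters' processing notes and scaled to the same trimmed mean. Array number limits the precision. Probe sets were named through the platform annotation: of 52865, 158 control probe sets were left out, and 24956 of the others had 1 symbol, 361 several and 27390 none. Log2(value + 16) was fitted with limma 3.58.1 (R 4.3.3) as a mean per group over all 20 arrays, with Benjamini-Hochberg adjustment over 52707 probe sets in each of 7 comparisons and a threshold of 0.05. Fold changes are on that scale, which understates the change of dim probe sets. The scripts were tested on simulated data.

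The members and lists were chosen with earlier results of these data known. The text names the members, the 3 genes closest to each, from each list up to 4 called genes per comparison or, where none was called, up to 2 of the highest mean level, and the fixed markers; genes named for their role are marked as such. Each list gene was read by its brightest probe set on average. Of 99 list genes 63 had a probe set, 60 outside the members; of 47 markers 32 had one. Alternatives were quantile normalisation, median-centring, pseudocounts of 1 and 64, the upper 50% of probe sets, the 2 groups alone, the replicate number as a block, each array or the 3 that stood apart left out, and all probe sets of a gene averaged.

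Signals of arrays from different groups correlated at 0.950 to 0.985 on the log2 scale. For a look at pairing, each array's deviations from its group means were correlated instead. These deviations correlated above 0.1 in 14 of 40 pairs of same-numbered arrays of different groups, with a median of 0.031. For arrays with different numbers they did so in 24 of 120 pairs, with a median of -0.023. Whether the numbers mark pairs was not tested further. The main fit did not treat them as pairs, and the replicate number entered as a block only among the alternatives.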

Additional observations from a re-analysis of the deposited data

Results flagged for a closer look

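In 3 of the 45 groups of 4 arrays that the 9 probe sets give, 1 array lay further from the other 3 than Dixon's 95% limit allows, and chance alone gives this in about 1 in 20 groups. All 3 were low CYP3A4 values. MmugDNA.1267.1.S1_s_at gave 981 in hCG day 12 replicate 1, below the other 3 arrays at 1245 to 1256. MmugDNA.31167.1.S1_x_at gave 53.1 in hCG day 18 replicate 1, where the others gave 503 to 664. The Mmu x_at probe set gave 1397 in hCG day 10 replicate 4, where the others gave 2958 to 3397.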

How the results depend on the processing

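No difference of a member that had been called changed its sign in the alternatives, and of their differences from untreated tissue under these alternatives 1012 moved by less than the spread between replicates and 4 by more. These 4 were means over a gene's probe sets, which gave -0.42, -0.56 and -0.78 for PAPSS2 on hCG days 12, 15 and 18 and -1.38 for CYP3A4 on day 18. Of their differences between neighbouring hCG days 758 moved by less and 4 by more, which were the PAPSS2 means over probe sets (-0.37, -0.14 and -0.22) and PAPSS2 MmugDNA.30596.1.S1_at from day 12 to 15 without the 3 arrays that stood apart (0.47 in place of 0.15). The 2 member probe sets called on day 15 became 1 with a pseudocount of 1, with the 2 groups alone and without the 3 arrays that stood apart, and 1 to 3 with 1 array left out (1 without untreated replicate 2 or 4 or hCG day 15 replicate 1, 2 or 4). Of the pathway genes, the 2 called on hCG day 10 became 0 with a pseudocount of 1 or the 2 groups alone, 1 without the 3 arrays that stood apart, and 0 to 3 with 1 array left out. With the replicate number as a block it was 1. The 0 of day 12 became 1 with median-centring, a pseudocount of 64 or the upper 50% of probe sets, and 0 to 1 with 1 array left out. The 3 of day 15 became 0 with the 2 groups alone, 1 without the 3 arrays, and 1 to 3 with 1 array left out (1 without untreated replicate 3 or 4 or hCG day 15 replicate 4). The 5 of day 18 became 3 with a pseudocount of 1, 8 with one of 64 or the upper 50% of probe sets, and 3 to 6 with 1 array left out (3 without untreated replicate 1 or 3). The cause was not tested. Signals near 16 carry little information on direction.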
